A study of Mus musculus with 10 samples.

Results

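The genes described here are those of the oligodendrocyte lineage and of myelin, measured in RNA of the mouse hippocampal field CA3 after viral delivery of a hairpin against Mef2c. They were chosen by symbol: 36 genes were named, and 35 of them matched a row among the 18453 counted genes. Hapln5 was not matched. All 35 passed the filter on low counts, so none dropped out of the tests. They fall into 6 precursor genes, 2 genes of newly formed oligodendrocytes, 6 transcriptional regulators, 12 genes of the myelin sheath, 8 other genes of mature oligodendrocytes and Opcml, which was placed in no class. The sheath genes and the other mature genes together are the 20 myelinating genes.

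The study compared 5 libraries from C57BL/6J mice that received AAV-shRNA(mef2c) with 5 libraries from C57BL/6J mice that received AAV-shRNA(scramble), a virus with a control hairpin. Either virus was delivered by stereotaxic surgery on both sides of the brain, with the CA3 pyramidal neurons as the stated target of the knockdown. The libraries were made from polyadenylated RNA and sequenced as read pairs. The libraries are labelled male, while the treatment protocol allows either sex, and no age of the mice, serotype of the virus or promoter driving the hairpin is given in these sources. The labels do not say that each library came from its own animal, so p-values measure only the spread between these libraries, which may in part be technical.

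Oligodendrocytes arise from dividing precursor cells that carry the PDGF receptor alpha and the NG2 proteoglycan. Late precursors express Gpr17 and pass through a short-lived, newly formed stage marked by Enpp6 and Bcas1, under transcription factors that include Olig2, Sox10 and Myrf, and then wrap axons with a sheath rich in myelin basic protein and in galactolipids. The hippocampus holds both precursors and myelinating cells, and CA3 itself is crossed by myelinated fibres.

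The stretches upstream of 5 of these genes are shown because most myelinating genes were high or low in the same libraries and Pdgfra was not. Each is the stretch of 250 bases before a gene's start in the RefSeq annotation of GRCm38.p6, read 5′ to 3′ on the strand of the gene, with matches to the searched motifs in capitals. Mog lies at chr17:37023399-37023648 on the minus strand, Opalin at chr19:41077114-41077363 on the minus strand, Cldn11 at chr3:31149670-31149919 on the plus strand, Mal at chr2:127656696-127656945 on the minus strand and Pdgfra at chr5:75152001-75152250 on the plus strand.
Mog: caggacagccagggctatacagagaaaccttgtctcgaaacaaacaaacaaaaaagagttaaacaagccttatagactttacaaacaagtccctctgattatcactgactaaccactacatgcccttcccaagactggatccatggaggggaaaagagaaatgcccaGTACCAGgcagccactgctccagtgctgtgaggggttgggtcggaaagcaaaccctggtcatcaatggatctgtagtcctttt
Opalin: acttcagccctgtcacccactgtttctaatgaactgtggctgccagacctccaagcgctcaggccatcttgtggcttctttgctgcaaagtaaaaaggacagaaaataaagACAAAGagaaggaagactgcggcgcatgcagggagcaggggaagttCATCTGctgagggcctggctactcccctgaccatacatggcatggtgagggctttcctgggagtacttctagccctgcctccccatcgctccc
Cldn11: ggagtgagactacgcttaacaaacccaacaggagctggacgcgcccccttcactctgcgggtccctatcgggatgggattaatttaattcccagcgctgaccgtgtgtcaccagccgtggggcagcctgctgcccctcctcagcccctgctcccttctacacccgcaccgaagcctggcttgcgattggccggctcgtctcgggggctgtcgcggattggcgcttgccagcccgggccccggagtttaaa
Mal: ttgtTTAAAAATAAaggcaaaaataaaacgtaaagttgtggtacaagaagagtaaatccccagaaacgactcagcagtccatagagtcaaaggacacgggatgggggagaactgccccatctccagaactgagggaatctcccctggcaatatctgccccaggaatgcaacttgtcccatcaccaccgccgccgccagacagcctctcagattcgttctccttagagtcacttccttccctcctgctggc
Pdgfra: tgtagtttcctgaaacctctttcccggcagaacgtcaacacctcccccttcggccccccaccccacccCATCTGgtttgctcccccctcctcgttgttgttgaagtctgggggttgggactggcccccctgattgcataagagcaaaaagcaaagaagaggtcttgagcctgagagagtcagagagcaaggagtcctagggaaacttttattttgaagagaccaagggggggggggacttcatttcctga

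The motifs, searched on both strands, were ACAAAG (the core read by SOX factors), CAGCTG and CAGATG (E-boxes of the kind bound by OLIG factors), CTGGNAC (a MYRF motif) and the MEF2 consensus. RefSeq gave 31 such windows for 27 of the genes. The SOX core was present in 6 windows (19.4%), against 16.5% of all 32841 windows, and the MYRF motif in 6 (19.4%), against 16.1%. CAGATG was present in 9 windows (29.0%), against 14.4% of all windows, and CAGCTG in 3 (9.7%), against 13.0%. The MEF2 consensus was found upstream of Aspa, Mal and Nfasc, in 3 windows (9.7%), against 2.9% of all windows. The capitals in Mog mark the MYRF motif, those in Opalin a SOX core and CAGATG, those in Mal the MEF2 consensus and those in Pdgfra CAGATG, each in either orientation. Cldn11 has no match. A match is a description of letters and shows neither a site nor its use, and a window without one says only that these letters are not in it.

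Library totals lay between 15669620 and 17798090 counts with the Mef2c hairpin and between 14701928 and 15637076 counts with the scramble. Mef2c itself measured 111, 131, 121, 163 and 286 CPM (read counts scaled to a common library size, as set by the TMM method) in Mef2c shRNA libraries 1 to 5, against 166, 198, 176, 312 and 175 CPM in scramble libraries 1 to 5, with an adjusted p of 0.489 in edgeR's quasi-likelihood test. The library labelled Mef2c shRNA 5 thus carried more Mef2c than 4 of the 5 scramble libraries, which goes against its label. The summed markers of cortical layers were highest in that library, at 330 CPM, and next highest in scramble library 4, at 286 CPM, with 140 to 216 CPM elsewhere. The summed markers of choroid plexus ranged from 48.0 to 2757 CPM with the Mef2c hairpin and from 70.9 to 1983 CPM with the scramble. Markers of CA3 pyramidal neurons summed to 170 to 247 CPM with the Mef2c hairpin and 192 to 220 CPM with the scramble, and those of dentate granule cells and CA1 were present in every library as well. The oligodendrocyte markers Mog, Mag, Cldn11 and Opalin were found in every library.

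Across the lineage, few genes differed between the hairpins. In edgeR's quasi-likelihood test over all 14393 genes tested, with a Benjamini-Hochberg adjusted p under 0.05, Pdgfra and Opcml were lower with the Mef2c hairpin and the other 33 genes did not pass. The share called lower, 2 of 35 or 5.71%, lay below the 7.61% called lower among all genes tested. No gene of the lineage was called higher in edgeR, against 4.66% of all genes, and calls in either direction made up 12.3% of all genes. At an unadjusted p under 0.05 there were 7 of the 35 genes (20%), 4 higher and 3 lower, against 30.1% of all genes. DESeq2 called 1 lineage gene higher and 3 lower, and limma-voom called 3 higher and 3 lower. Over all genes DESeq2 called 1167 higher and 1388 lower, and limma-voom called 1571 higher and 1822 lower. The median log2 fold change of the 35 genes was 0.05, against 0.02 for all genes. In bulk RNA, fewer cells of a type and less RNA per cell cannot be told apart.

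**Figure D1:**
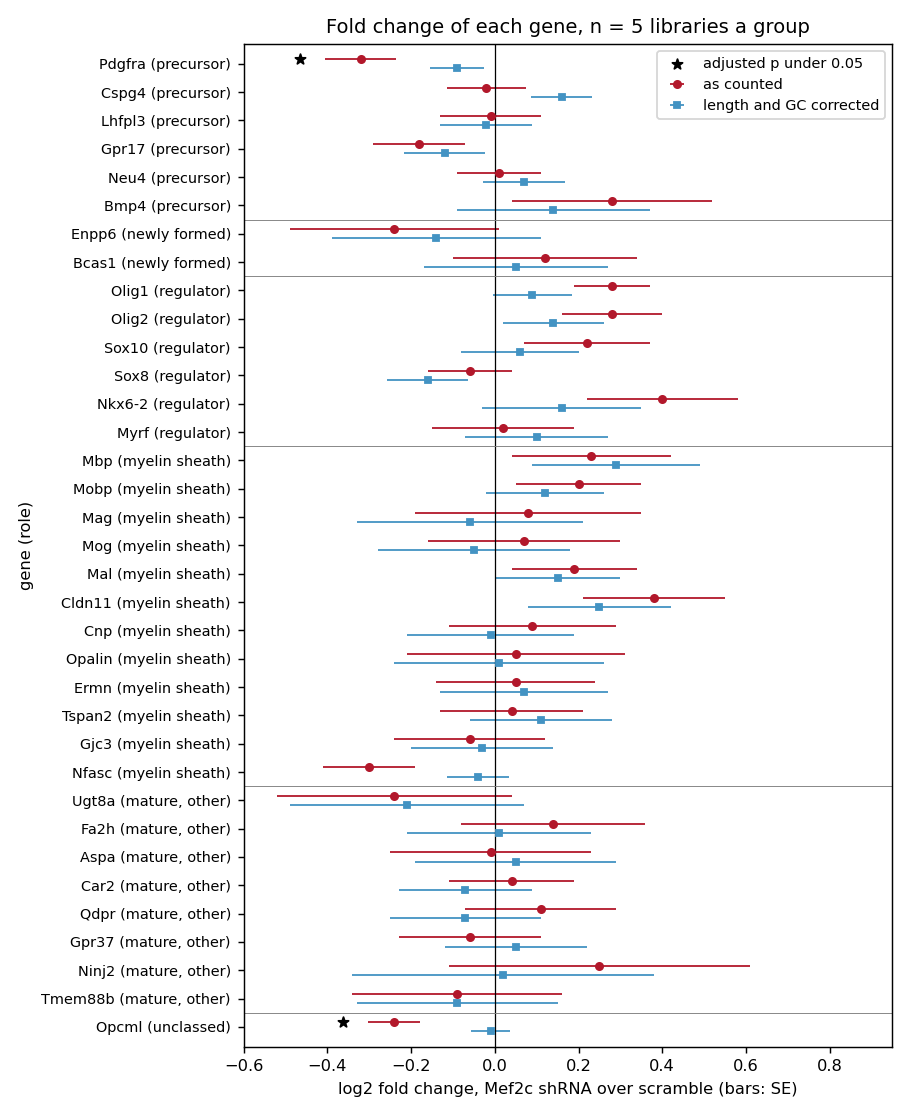
Log2 fold change of the 35 genes, Mef2c shRNA over scramble, with standard errors, as counted (circles) and after correction for transcript length and GC content (squares). Stars mark adjusted p under 0.05: only Pdgfra and Opcml carry one, and their corrected values lie at -0.09 and -0.01.

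Among the precursor genes, only Pdgfra fell in edgeR. Pdgfra, the receptor through which PDGF-A drives precursors to divide, measured 63.5, 46.0, 49.0, 49.9 and 53.0 CPM in Mef2c shRNA libraries 1 to 5, against 63.2, 70.7, 61.5, 62.4 and 68.9 CPM in scramble libraries 1 to 5. Mef2c shRNA library 1 lay inside the scramble range and the other 4 lay below it, so the groups overlapped by that library. The means were 52.3 ± 6.76 CPM and 65.3 ± 4.14 CPM (SD, n = 5 each), and the log2 fold change was -0.32 with a standard error of 0.085 and an adjusted p of 0.0278. The call was lost when any of Mef2c shRNA libraries 2, 3 or 4 or scramble libraries 2, 4 or 5 was left out, with log2 fold changes from -0.34 to -0.28 and adjusted p from 0.0534 to 0.0819. Without the library labelled Mef2c shRNA 5 the adjusted p was 0.0282. Pdgfra lies on chromosome 5 from 75152292 to 75198215 (GRCm38) and its longest transcript measures 6.83 kb.

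Cspg4, which encodes the NG2 proteoglycan that marks the same cells, showed no such difference. Cspg4 measured 37.8, 25, 32.1, 30.5 and 30.4 CPM in Mef2c shRNA libraries 1 to 5, against 31.5, 30.7, 33.7, 29.7 and 32.5 CPM in scramble libraries 1 to 5. Mef2c shRNA library 1 was the highest and library 2 the lowest of all 10, and the others lay within the scramble range. This gave a log2 fold change of -0.02, with a 95% interval from -0.23 to 0.18. The Pdgfra interval, from -0.50 to -0.14, overlaps it, and the difference between the 2 genes was not tested.

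Gpr17, a receptor of committed precursors that is shut off before myelination, measured 48.9, 42.4, 43.2, 49.0 and 32.4 CPM with the Mef2c hairpin, against 40.2, 50.6, 56.0, 47.2 and 50 CPM with the scramble. The library labelled Mef2c shRNA 5 was the lowest of all 10 and the others lay inside the scramble range. Gpr17 had a log2 fold change of -0.18 with a standard error of 0.11 and an adjusted p of 0.310. Bmp4, a secreted signal that holds back oligodendrocyte differentiation, was the least abundant of the 6, at 3.53, 2.66, 2.26, 3.90 and 5.44 CPM with the Mef2c hairpin and 2.29, 3.07, 3.18, 3.48 and 2.61 CPM with the scramble. Its highest value was in the library labelled Mef2c shRNA 5, and the groups overlapped (log2 fold change 0.28, standard error 0.24, adjusted p 0.454). Lhfpl3 and the sialidase gene Neu4 had log2 fold changes of -0.01 and 0.01. Reads of Gpr17 and Bmp4 may in part belong to Lims2 and Gm15217, whose exons overlap theirs on the other strand, since the sources used here do not give the strand setting of the counting.

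**Figure D2:**
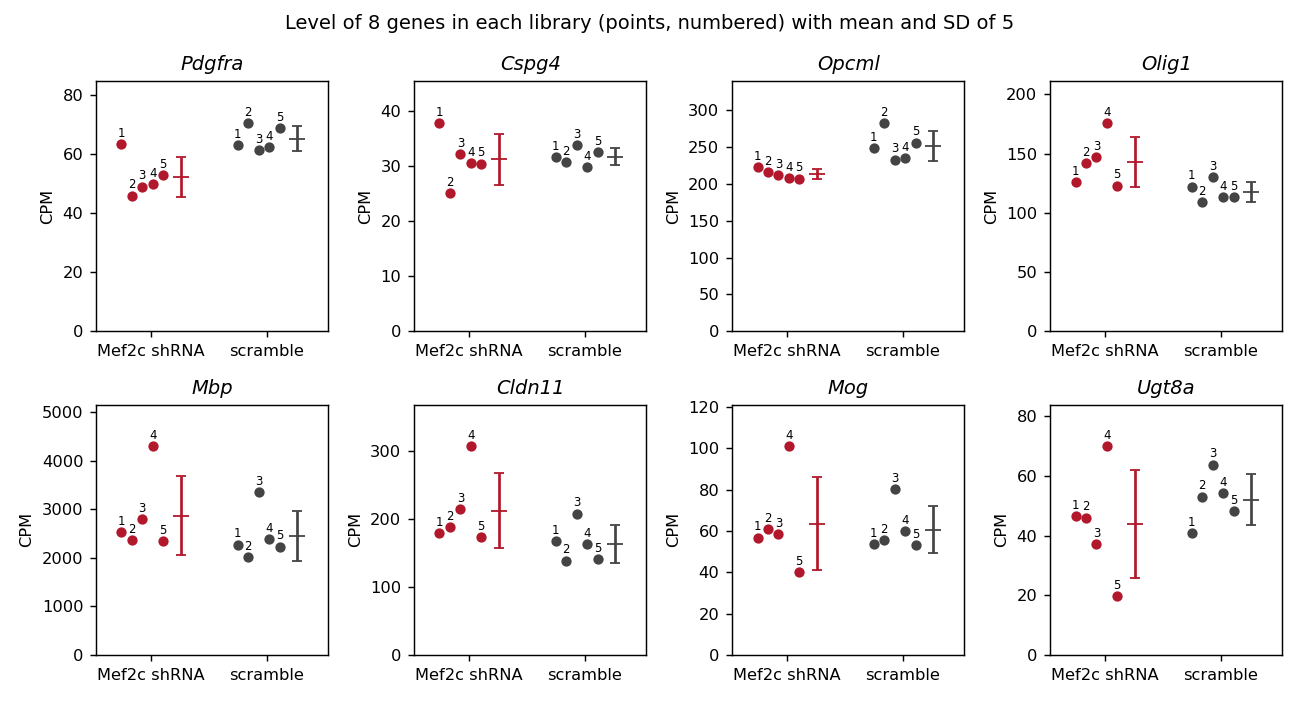
CPM of 8 genes in each library (points, numbered by replicate), with the mean and SD of 5 libraries beside them, for Mef2c shRNA (left) and scramble (right). Opcml shows 2 groups that do not overlap, and in Mbp, Cldn11, Mog and Ugt8a the highest point of each group is Mef2c shRNA library 4 or scramble library 3.

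The 2 genes of newly formed oligodendrocytes did not pass the test. Enpp6, a choline-specific phosphodiesterase of cells that have just left the cycle, measured 8.67, 8.77, 10, 16.6 and 4.95 CPM with the Mef2c hairpin, against 9.15, 11.3, 14.2, 12.5 and 11.1 CPM with the scramble. Bcas1, a marker of early myelinating cells, measured 135, 142, 141, 238 and 95.4 CPM with the Mef2c hairpin, against 117, 120, 173, 145 and 136 CPM with the scramble. In both genes Mef2c shRNA library 4 was the highest of all 10 libraries and the library labelled Mef2c shRNA 5 the lowest. The log2 fold changes were -0.24 for Enpp6 and 0.12 for Bcas1, with adjusted p of 0.554 and 0.753.

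Of the 6 regulators none passed in edgeR, with 5 above 0 and a median log2 fold change of 0.25, against 0.02 for all genes. At an unadjusted p under 0.05 there were 3 of 6, each higher, against 30.1% of all genes in either direction. After correction for transcript length and GC content none of the 6 reached an unadjusted p under 0.05. Olig1, a basic helix-loop-helix factor needed for maturation, measured 126, 142, 147, 176 and 123 CPM in Mef2c shRNA libraries 1 to 5, against 122, 109, 130, 113 and 113 CPM in scramble libraries 1 to 5. Mef2c shRNA libraries 2, 3 and 4 exceeded every scramble library, and the other 2 lay at the upper end of the scramble range. The log2 fold change was 0.28 with a standard error of 0.091 and an adjusted p of 0.0566, which misses the threshold. It passed when Mef2c shRNA library 1, the library labelled Mef2c shRNA 5 or scramble library 3 was left out, with adjusted p of 0.0208, 0.0217 and 0.0479. DESeq2 and limma-voom also called Olig1 higher, with adjusted p of 0.0261 and 0.00593. With the length and GC correction its log2 fold change was 0.09 (adjusted p 0.669), and without Mef2c shRNA libraries 2, 3 and 4 it was 0.08 (adjusted p 0.653).

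Olig2, the partner factor that specifies the lineage, measured 31.1, 31.6, 36.2, 43.3 and 30.8 CPM with the Mef2c hairpin, against 25.3, 24.4, 36.5, 29.5 and 26.7 CPM with the scramble. Every Mef2c shRNA library exceeded 4 of the 5 scramble libraries, and scramble library 3 stood above all of them except library 4. The log2 fold change was 0.28 (standard error 0.12, adjusted p 0.141), and without scramble library 3 it was 0.39 with an adjusted p of 0.0398. Nkx6-2, a homeodomain factor of maturing cells, measured 11.9, 14.2, 15.7, 23.8 and 13.1 CPM with the Mef2c hairpin, against 11.6, 11.9, 15.4, 11.2 and 9.69 CPM with the scramble. Its log2 fold change of 0.40 (standard error 0.18, adjusted p 0.160) was the highest of the 35, and without Mef2c shRNA library 4 it was 0.20. Its exons overlap Inpp5a on the other strand. Both Olig2 and Nkx6-2 were called higher by limma-voom, with adjusted p of 0.0379 and 0.0399, and by DESeq2 neither was (0.119 and 0.126). Over all genes limma-voom called 1571 higher.

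Sox10, the factor that switches on myelin genes with Myrf, had a log2 fold change of 0.22 (adjusted p 0.328), and its relative Sox8 one of -0.06. Myrf measured 96.0, 75.8, 89.1, 120 and 62.6 CPM with the Mef2c hairpin, against 86.9, 76.0, 114, 82.9 and 77.2 CPM with the scramble, a log2 fold change of 0.02. All 6 regulators were highest of all 10 libraries in Mef2c shRNA library 4, against 8.25% of all genes tested. After correction for transcript length and GC content the median of the 6 was 0.09.

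Of the 12 myelin sheath genes none passed in edgeR, with 10 above 0 and a median log2 fold change of 0.07. At an unadjusted p under 0.05 there were 2 (16.7%), Cldn11 higher and Nfasc lower, against 30.1% of all genes. Both DESeq2 and limma-voom called Nfasc lower, with adjusted p of 0.0496 and 0.0138, and no other sheath gene. Over all genes these tools called 1388 and 1822 lower. Mbp, whose protein compacts the cytoplasmic faces of the sheath, was the most abundant of the 35 lineage genes per length. It stood at 597 CPM per kb with the Mef2c hairpin and 511 CPM per kb with the scramble. Mbp measured 2530, 2370, 2800, 4290 and 2340 CPM in Mef2c shRNA libraries 1 to 5, against 2270, 2020, 3350, 2380 and 2230 CPM in scramble libraries 1 to 5. Mef2c shRNA library 4 was highest and scramble library 3 next, and the remaining 8 libraries lay between 2020 and 2800 CPM. Mbp had a log2 fold change of 0.23 (standard error 0.19, adjusted p 0.466).

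Mobp, a second abundant basic protein of compact myelin, measured 855, 710, 909, 1230 and 788 CPM with the Mef2c hairpin, against 743, 681, 1020, 755 and 717 CPM with the scramble, with a log2 fold change of 0.20 (adjusted p 0.409). Cldn11, the tight junction protein between myelin layers, measured 179, 188, 215, 307 and 173 CPM with the Mef2c hairpin, against 168, 139, 208, 163 and 141 CPM with the scramble. Every Mef2c shRNA library exceeded 4 of the 5 scramble libraries in Cldn11, and scramble library 3 lay among them. Its log2 fold change was 0.38 with a standard error of 0.17 and an adjusted p of 0.163.

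Nfasc had the lowest log2 fold change of the sheath genes. It encodes neurofascin, whose glial form anchors the sheath beside the node and whose neuronal form sits at the node itself. Nfasc measured 431, 298, 356, 383 and 260 CPM with the Mef2c hairpin, against 421, 401, 450, 431 and 425 CPM with the scramble. Mef2c shRNA library 1 lay inside the scramble range and the other 4 below it, as in Pdgfra, though the order of those 4 differed. The log2 fold change was -0.30 with a standard error of 0.11 and an adjusted p of 0.0930, and it was -0.39 with an adjusted p of 0.0125 without Mef2c shRNA library 1. Its longest transcript, at 9.74 kb, is the longest of the 35.

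Mog, an adhesion protein of the outermost layer, measured 56.8, 60.9, 58.4, 101 and 40.3 CPM with the Mef2c hairpin, against 53.8, 55.8, 80.3, 60 and 53.1 CPM with the scramble. Mef2c shRNA libraries 1, 2 and 3 lay among the scramble libraries, while library 4 stood above all and the library labelled Mef2c shRNA 5 below all. Mog had a log2 fold change of 0.07, and its 95% interval, from -0.44 to 0.58, leaves room for a change in either direction. Mag, the axon-facing adhesion protein of the sheath, had a log2 fold change of 0.08, the phosphodiesterase gene Cnp 0.09, the proteolipid gene Mal 0.19, and Opalin, Ermn, Tspan2 and Gjc3 lay between -0.06 and 0.05. Reads of Cnp and Ermn may in part belong to Dnajc7 and Galnt5, which overlap them on the other strand.

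The 8 other genes of mature oligodendrocytes gave a median log2 fold change of 0.01, with 4 above and 4 below 0. None passed the threshold in edgeR, in DESeq2, in limma-voom or at an unadjusted p under 0.05. Of all genes, edgeR called 12.3%, and 30.1% had an unadjusted p under 0.05. DESeq2 called 2555 of all genes and limma-voom 3393, in either direction. Car2, the cytosolic carbonic anhydrase, measured 159, 157, 150, 212 and 104 CPM with the Mef2c hairpin, against 141, 147, 180, 152 and 141 CPM with the scramble (log2 fold change 0.04, adjusted p 0.893). Qdpr, which regenerates tetrahydrobiopterin, measured 125, 129, 116, 187 and 98.0 CPM with the Mef2c hairpin, against 111, 105, 162, 116 and 111 CPM with the scramble (0.11, adjusted p 0.711). In both genes Mef2c shRNA library 4 was the highest and the library labelled Mef2c shRNA 5 the lowest of all 10.

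The genes Ugt8a and Fa2h of sphingolipid synthesis had log2 fold changes of opposite sign, and neither passed. Ugt8a, the enzyme that makes galactosylceramide, measured 46.6, 46.0, 37.1, 69.9 and 19.8 CPM with the Mef2c hairpin, against 40.8, 53.1, 63.8, 54.3 and 48.2 CPM with the scramble, a log2 fold change of -0.24 with a standard error of 0.28. Fa2h, which hydroxylates the fatty acids of these lipids, had 0.14 with a standard error of 0.22. Aspa, which releases acetate from N-acetylaspartate, the receptor gene Gpr37 and Tmem88b had -0.01, -0.06 and -0.09. Ninj2, the least abundant at 0.544 to 2.80 CPM with the Mef2c hairpin and 1.24 to 2.52 CPM with the scramble, had 0.25 with a standard error of 0.36.

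Opcml, which encodes a GPI-anchored adhesion molecule of the IgLON family that neurons also express, was the other gene called. Opcml measured 223, 216, 212, 208 and 207 CPM in Mef2c shRNA libraries 1 to 5, against 249, 283, 233, 235 and 256 CPM in scramble libraries 1 to 5. Every Mef2c shRNA library lay below every scramble library, which held for 1 of the 35 genes (2.86%) and, in either direction, for 9.34% of all genes tested. The log2 fold change was -0.24 with a standard error of 0.062 and an adjusted p of 0.0281. The call was lost when any of Mef2c shRNA libraries 2, 3 or 4 or scramble libraries 1, 2 or 5 was left out, with log2 fold changes from -0.24 to -0.19 and adjusted p from 0.0514 to 0.0765. Its longest transcript measures 6.68 kb.

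Long lineage genes had lower fold changes than short ones, as did all genes. Over 14381 genes with a length, Spearman's correlation of log2 fold change with transcript length was -0.56 across genes, which are not independent replicates. Lineage genes of up to 2 kb, 6 in number, had a median of 0.18 on that scale, against 0.20 for all genes of that length. The 11 of 2 to 3 kb had 0.14, against 0.10, the 5 of 3 to 4 kb -0.01, against 0.03, and the 9 of 4 to 6 kb -0.01, against -0.07. The 4 above 6 kb, which are Pdgfra, Cspg4, Nfasc and Opcml, had -0.27, against -0.25 for all genes of that length. After a correction for length and GC content in each library, 1.65% of all genes were called in either direction and none of the 35. Pdgfra then had -0.09 (standard error 0.064, adjusted p 0.513), Nfasc -0.04 and Opcml -0.01. Cspg4 had 0.16 and was the only one of the 35 with an unadjusted p under 0.05, against 2527 of all 14393 genes. What moved with length between the libraries was not tested.

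Precursor and myelinating genes did not differ by hairpin beyond the spread between libraries. The median log2 fold change was 0.06 over the 20 myelinating genes and -0.02 over the 6 precursor genes, a difference of 0.07, and the corrected medians were 0.01 and 0.02. Taken per library, the median of the myelinating genes minus that of the precursor genes was 0.13 ± 0.42 with the Mef2c hairpin and 0.05 ± 0.15 with the scramble (log2, SD, n = 5 each). Summed over the 20 genes, myelinating RNA came to 5626, 5132, 5926, 8739 and 4703 CPM with the Mef2c hairpin, against 5142, 4746, 7087, 5321 and 4977 CPM with the scramble. Mef2c shRNA library 4 and scramble library 3 stood above the rest, and the library labelled Mef2c shRNA 5 was the lowest, and the scramble range lay inside the Mef2c shRNA range. Summed precursor RNA came to 178.5, 140.8, 152.4, 163.5 and 150.9 CPM with the Mef2c hairpin, against 162.8, 183.4, 183.6, 169.6 and 179.2 CPM with the scramble. There the lowest 3 were Mef2c shRNA libraries 2, 3 and 5. Without Mef2c shRNA library 4 the median of the myelinating genes was -0.15 and the difference from the precursor genes -0.11, so 1 library decided the sign of both.

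**Figure D3:**
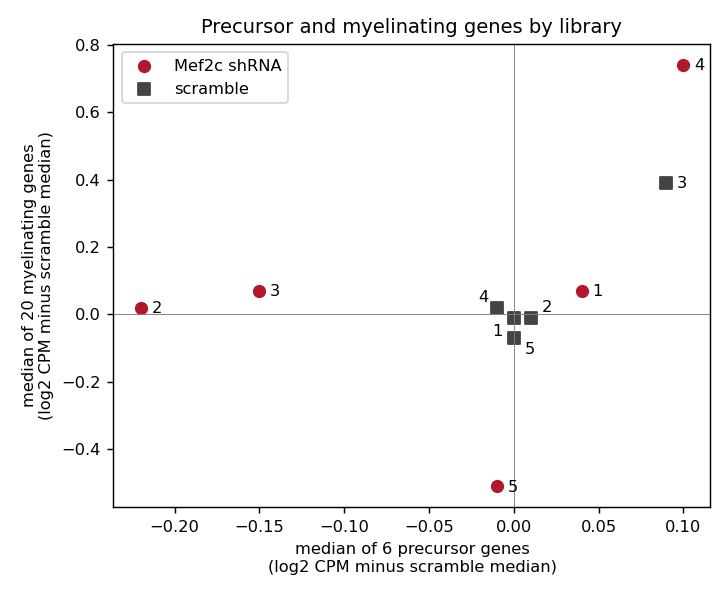
Median log2 CPM, relative to the scramble median, of the 6 precursor genes (horizontal) and the 20 myelinating genes (vertical) in each numbered library. The Mef2c shRNA libraries run from -0.51 to 0.74 on the vertical axis and the scramble libraries from -0.07 to 0.39.

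Wider differences in myelinating RNA lay between libraries of the same hairpin. Relative to the scramble median, Mef2c shRNA library 4 held a median of 1.67 times as much of the 20 myelinating RNAs, and the library labelled Mef2c shRNA 5 held 0.702 times as much. Mef2c shRNA libraries 1, 2 and 3 held 1.05, 1.02 and 1.05 times as much, and scramble library 3 held 1.31 times as much. Mef2c shRNA library 4 was the highest of all 10 in 19 of the 20 genes (95%), against 8.25% of all genes tested, with Nfasc the exception. Scramble library 3 was the highest of the scramble libraries in all 20, against 24.0% of all genes. The library labelled Mef2c shRNA 5 lay below every scramble library in 16 of the 20 (80.0%), against 32.2% of all genes.

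**Figure D4:**
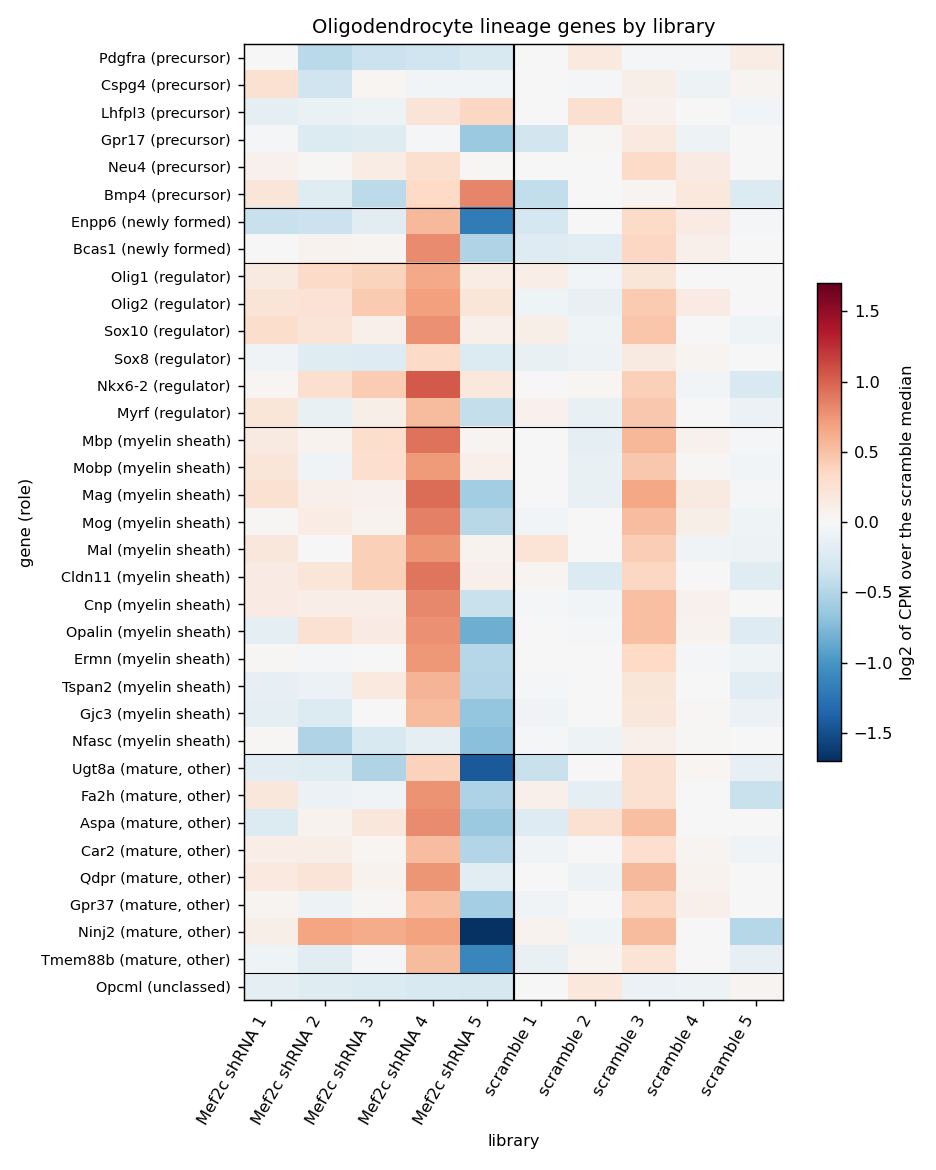
Log2 of CPM over the scramble median for the 35 genes (rows, grouped by role) in the 10 libraries (columns, Mef2c shRNA left of the line). Red marks higher and blue lower values; the columns of Mef2c shRNA 4 and scramble 3 are red over the regulators and most myelinating genes, and the column of Mef2c shRNA 5 is blue over 16 of the 20 myelinating genes.

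Among the 6 precursor genes, Mef2c shRNA library 4 exceeded all scramble libraries in 1 (16.7%), against 28.2% of all genes tested. It was the highest of all 10 in none, against 8.25% of all genes. The library labelled Mef2c shRNA 5 lay below all scramble libraries in 2 of the 6 (33.3%), near the 32.2% of all genes. Among the regulators, Mef2c shRNA library 4 was the highest in 6 of 6, against 8.25% of all genes, at 1.25 to 2.06 times the scramble median. The library labelled Mef2c shRNA 5 held 0.754 times the scramble median of Myrf but 1.15 times that of Olig2.

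For the library labelled Mef2c shRNA 5 the 20 myelinating genes were split by whether they lay below every scramble library there. Mbp, Mobp, Mal and Cldn11 measured 1.03 to 1.07 times the scramble median there. The other 16, among them Mog, Mag, Cnp and Opalin, measured 0.312 to 0.883 times it, with a median of 0.666. In Mef2c shRNA library 4 the same 4 genes measured 1.65 to 1.89 times the scramble median, within the range of the other 16, which was 0.901 to 1.93. The ratio of Mbp to Mog, taken on CPM, was 44.5, 38.9, 47.9, 42.3 and 58.1 in Mef2c shRNA libraries 1 to 5, against 42.3, 36.1, 41.7, 39.7 and 41.9 in scramble libraries 1 to 5. The ratio of Mbp to Mag was 20.6 in the library labelled Mef2c shRNA 5 and 12.3 to 15.4 in the other 9, and that of Mbp to Opalin was 195 there and 93.1 to 133 elsewhere. This split was made on the same values and has no test, so the gap between the 2 sets is no result. Among the 41 other genes of myelinating oligodendrocytes some lay in that gap. Gal3st1, Ndrg1 and Gpr62, for instance, measured 0.912, 0.942 and 0.954 times the scramble median in that library.

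**Figure D5:**
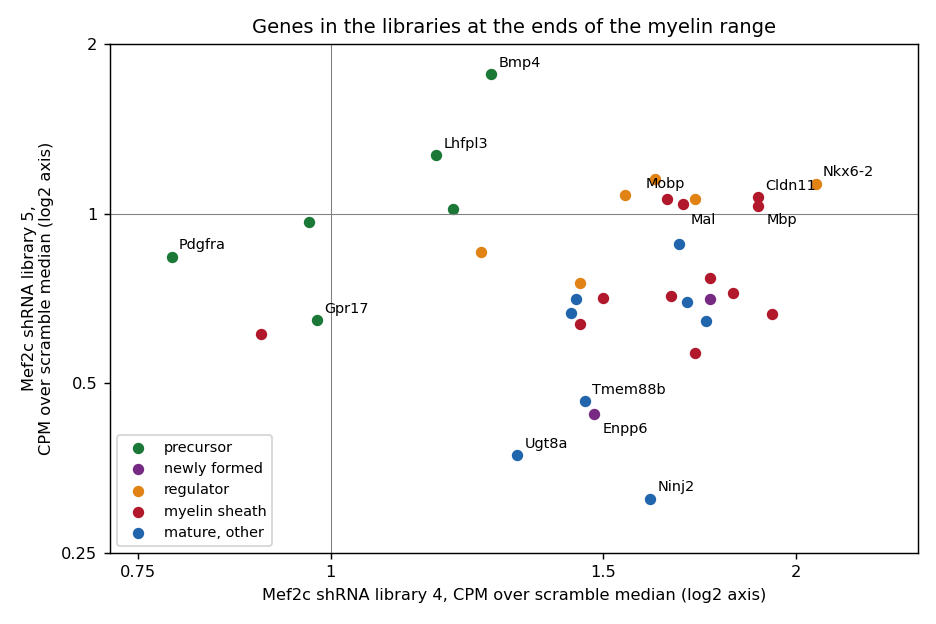
CPM over the scramble median of 34 genes in Mef2c shRNA library 4 (horizontal) and in the library labelled Mef2c shRNA 5 (vertical), on log2 axes, coloured by role. Mbp, Mobp, Mal and Cldn11 lie at 1.03 to 1.07 on the vertical axis, and the other myelinating genes lie at 0.312 to 0.883.

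Markers of other cells moved with some of these libraries. Mef2c shRNA library 4 had the lowest summed CA3 markers, at 170 CPM. The library labelled Mef2c shRNA 5 had the highest cortical markers, at 330 CPM. It also had the lowest dentate granule markers, at 297 CPM against 377 to 538 CPM in the other 9. In that library Prox1, Dsp and Lct lay below every scramble library, while C1ql2 and Tdo2 lay within the scramble range. The summed microglia markers were 367, 484, 598, 460 and 313 CPM with the Mef2c hairpin, against 270, 295, 367, 280 and 286 CPM with the scramble, and 3 of the 6 were called higher, against 4.66% of all genes. The astrocyte markers summed to 1738 to 1998 CPM with the Mef2c hairpin and 1607 to 1800 CPM with the scramble, with 1 of 6 called higher. The endothelial markers summed to 210 to 263 CPM with the Mef2c hairpin and 196 to 216 CPM with the scramble, with 2 of 5 called higher. Those 2 were Cldn5 and Ly6c1, with transcripts of 1.42 and 0.84 kb, while Flt1, Pecam1 and Slco1a4 had log2 fold changes of -0.07, -0.02 and 0.04. After the length and GC correction none of these markers passed the adjusted threshold. With it 3 microglia, 1 astrocyte and 3 endothelial markers had an unadjusted p under 0.05, each higher, against 2527 of all 14393 genes in either direction. Scramble library 3, high in myelin RNA, also had the highest microglia sum of its group. The neuron markers summed to 8448 CPM in Mef2c shRNA library 4, the lowest of the 10, against 8660 to 9878 CPM elsewhere. Camk2a alone gave 4280 CPM of that sum. There Camk2a, Syt1 and Map2 lay below every scramble library, while Snap25, Tubb3 and Rbfox3 lay within the scramble range. Map2 also lay below every scramble library in all 5 Mef2c shRNA libraries, and Syt1 in 4 of 5. In edgeR Map2 was the 1 of 6 neuron markers called, at -0.55 (adjusted p 0.00149), against 7.61% of all genes called lower. With the length and GC correction Map2 stayed called, at -0.35 (adjusted p 0.0138), against 1.65% of all genes in either direction. The part of these differences in the myelin values was not tested.

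Of 41 other genes of myelinating oligodendrocytes, 1 was called higher and 1 lower in edgeR (4.88%), against 12.3% of all genes in either direction. Their median log2 fold change was 0.09. Apod, a lipid-binding secreted protein of these cells and of other glia, measured 126, 147, 178, 189 and 273 CPM with the Mef2c hairpin, against 87.5, 126, 134, 91.0 and 91.0 CPM with the scramble. It was highest in the library labelled Mef2c shRNA 5, where most myelinating genes were lowest (log2 fold change 0.79, standard error 0.22, adjusted p 0.0455). The call for Apod held in 2 of 10 fits with 1 library left out, with adjusted p up to 0.106. Pex5l was lower, by a log2 fold change of -0.38 (standard error 0.085, adjusted p 0.0142), with the groups apart and the call held in 10 of 10 such fits. Both calls were lost after the length and GC correction, with log2 fold changes of 0.71 (adjusted p 0.129) for Apod and -0.32 (adjusted p 0.0579) for Pex5l. With that correction 4 of the 41 had an unadjusted p under 0.05, against 2527 of all 14393 genes. Tppp and Sirt2, next by p, had -0.24 and 0.22 with adjusted p of 0.0582 and 0.102. Mef2c shRNA library 4 was the highest of all 10 in 31 of these 41 genes (75.6%), against 8.25% of all genes tested. The library labelled Mef2c shRNA 5 lay below all scramble libraries in 21 (51.2%), against 32.2% of all genes.

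Of 11 other precursor genes, 4 fell in edgeR (36.4%), against 7.61% of all genes called lower. Tnr, the matrix glycoprotein tenascin-R, measured 249, 176, 181, 185 and 167 CPM with the Mef2c hairpin, against 263, 295, 252, 238 and 285 CPM with the scramble, a log2 fold change of -0.48 (standard error 0.10, adjusted p 0.0117). Ptprz1, a receptor phosphatase of precursors and astrocytes, had -0.29 (adjusted p 0.0188). The factor Sox6, which holds precursors immature, had -0.34 (adjusted p 0.0339), and Xylt1, which starts the sugar chains of proteoglycans, -0.46 (adjusted p 0.0434). Tnr kept its call in 10 of 10 fits with 1 library left out, Ptprz1 in 7, Sox6 in 4 and Xylt1 in 2. The median transcript of these 11 measures 6.68 kb, and after the length and GC correction none passed, at an unadjusted p under 0.05 either, with log2 fold changes of -0.07, 0.00, -0.02 and -0.18 for the 4.

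Of 12 other genes of newly formed cells and of regulation none passed in edgeR or DESeq2, and limma-voom called 1 lower. In either direction edgeR called 12.3% of all genes and DESeq2 called 2555 genes, while limma-voom called 1822 of all genes lower. In edgeR 3 of the 12 (25%) had an unadjusted p under 0.05, against 30.1% of all genes. Of 15 genes of signals to oligodendrocytes, 1 rose, against 4.66% of all genes, and 2 fell (13.3%), against 7.61% of all genes. Erbb4, a neuregulin receptor found mainly in interneurons in this tissue, measured 36.7, 30.8, 31.9, 45.0 and 50 CPM with the Mef2c hairpin, against 63.0, 79.8, 62.3, 73.9 and 60.5 CPM with the scramble. The groups stood apart (log2 fold change -0.80, standard error 0.14, adjusted p 0.00445). Its ligand gene Nrg1 had -0.73 (adjusted p 0.0386), and Rtn4r, a receptor for myelin inhibitors on axons, was higher at 0.34 (adjusted p 0.0144). Erbb4 and Rtn4r kept their calls in 10 of 10 fits with 1 library left out and Nrg1 in 3. After the length and GC correction none of the 15 passed, and Erbb4 had -0.37. With that correction 3 of the 15 had an unadjusted p under 0.05, against 2527 of all 14393 genes.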

How the data were processed

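The members and the gene lists were chosen with earlier results of these data known. The authors deposited raw read counts per gene, 1 table a library, as the whole numbers in the files show. Per the submitters' processing notes HISAT2, featureCounts and mm10 were used, while their versions, settings, strandedness and annotation were not given in the sources used here. GENCODE M21 on GRCm38 supplied names, coordinates and longest-transcript lengths. GRCm38 is the assembly of mm10, and of 18453 identifiers 18421 were found in this release and 32 were not. Groups and replicate numbers came from titles, since 1 treatment tag is misspelt.

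Counts were filtered with filterByExpr, scaled by TMM and compared in edgeR 4.0.16 (R 4.3.3) by its robust quasi-likelihood test, in 10 libraries with no further term, and p-values were adjusted by Benjamini-Hochberg over 14393 genes. The standard error was the size of the log2 fold change over the root of F. Library totals of 14701928 to 17798090 counts make counting error small for all but the lowest genes. The biological coefficient of variation was 15.2%. No library duplicated another, with chi-square per degree of freedom from 3.85 to 39.2 within groups. Alternatives were DESeq2 1.42.0 size factors and Wald test, limma 3.58.1 voom with sample weights, other filters, a replicate block, offsets from splines (5 degrees of freedom) of log2 length and GC content, and fits without libraries. The pipeline was tested on simulated data.

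Values in every library are given for called genes, the 2 most abundant of each class and the 3 with the lowest p among precursor and among myelinating genes, with up to 4 genes named per other list. Cspg4, Mog, Olig2, Nkx6-2, Ugt8a, Mag and the ratios to Mbp were shown after their values were seen.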

Additional observations from a re-analysis of the deposited data

Results flagged for a closer look

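Of 70 groups of 5 libraries examined (35 genes, 2 hairpins), 10 held a library far from its own group, by Dixon's test at a critical value of 0.71; chance flags about 1 in 20 groups, and the genes share the same libraries. All 10 were high values of either Mef2c shRNA library 4 or scramble library 3. In Mef2c shRNA library 4, Sox10 measured 89.6 CPM (next 64.2), Sox8 65 CPM (next 50) and Mbp 4290 CPM (next 2800). In scramble library 3, Sox10 measured 72 CPM (next 55.6), Mbp 3350 CPM (next 2380), Mobp 1020 CPM (next 755), Mog 80.3 CPM (next 60), Cnp 445 CPM (next 330), Ermn 66.8 CPM (next 52.8) and Qdpr 162 CPM (next 116). The cause was not tested.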

How the results depend on the processing

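Pdgfra and Opcml kept their negative direction in 19 of 19 alternatives and their call in 11 and 10 of them. Counts of genes called over the whole table were 1766 in the reported fit, 3393 with limma-voom, 238 with the length and GC correction, 0 without Mef2c shRNA libraries 2, 3 and 4, 1029 without the library labelled Mef2c shRNA 5 and scramble library 4, and 631 to 3305 with 1 library left out. DESeq2 called 2555 (1167 higher, 1388 lower) and the reported fit 671 higher and 1095 lower. Lineage genes called higher numbered 0 as reported, 1 with DESeq2 (Olig1), 3 with limma-voom (Olig1, Olig2, Nkx6-2) and 0 to 2 with 1 library left out. Those called lower numbered 2 as reported, 0 with the length and GC correction, 0 without Mef2c shRNA libraries 2, 3 and 4, and 0 to 3 with 1 library left out. Those 3 libraries left out together gave a median of -0.29 for the myelinating genes and a difference from the precursor genes of -0.29, as -0.15 to 0.20 and -0.11 to 0.25 with 1 library left out. The replicate numbers were not stated to pair libraries: same-numbered deviations correlated at -0.11 to 0.40, 3 of 5 pairs lay above 0.1 and 1 of 5 libraries matched its own number best. With the replicate block, 1313 genes were called and 1 lineage gene lower, since Opcml reached an adjusted p of 0.0558 and Pdgfra 0.0438. Directions that turned belonged to genes never called. With limma-voom they were Gjc3 0.02, Aspa 0.16, Gpr37 0.02 and Tmem88b 0.02, and with the replicate block Opalin -0.01. With the length and GC correction they were Cspg4 0.16, Mag -0.06, Mog -0.05, Cnp -0.01, Aspa 0.05, Car2 -0.07, Qdpr -0.07 and Gpr37 0.05. Without Mef2c shRNA libraries 2, 3 and 4 they were Cspg4 0.10, Lhfpl3 0.05, Neu4 -0.05, Bcas1 -0.27, Myrf -0.15, Mbp -0.01, Mag -0.27, Mog -0.33, Cnp -0.22, Opalin -0.55, Ermn -0.27, Tspan2 -0.33, Fa2h -0.10, Car2 -0.22, Qdpr -0.13 and Ninj2 -0.59. Without the library labelled Mef2c shRNA 5 and scramble library 4 they were Gjc3 0.06, Aspa 0.09, Gpr37 0.05 and Tmem88b 0.08. With 1 library left out, values ran from -0.10 to 0.05 for Cspg4, -0.09 to 0.05 for Lhfpl3, -0.03 to 0.07 for Neu4, -0.11 to 0.25 for Bcas1, -0.11 to 0.14 for Myrf, -0.17 to 0.24 for Mag, -0.16 to 0.20 for Mog, -0.11 to 0.21 for Cnp, -0.17 to 0.21 for Opalin, -0.16 to 0.17 for Ermn, -0.13 to 0.15 for Tspan2, -0.25 to 0.06 for Gjc3, -0.07 to 0.27 for Fa2h, -0.25 to 0.13 for Aspa, -0.10 to 0.16 for Car2, -0.05 to 0.24 for Qdpr, -0.22 to 0.06 for Gpr37 and -0.30 to 0.09 for Tmem88b. DESeq2 size factors and the other filters on low counts changed no call of a lineage gene. Fewer libraries were fitted wherever some were left out, and the cause of the other shifts was not tested. Depth limits only the lowest genes, Ninj2 and Bmp4.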
